A study of Mus musculus with 2 samples.

Results

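Barx1 is a homeobox transcription factor of the mesenchyme that surrounds the developing mouse stomach. In that mesenchyme it is known for holding back Wnt signalling toward the gut lining, in part through secreted frizzled-related antagonists, and for keeping the stomach lining from taking on intestinal character. The neighbouring ventral mesenchyme of the foregut gives rise to lung, trachea and the venous pole of the heart and is marked by Wnt2, Tbx4 and Tbx5.

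The Barx1-high cells described here were picked from single-cell RNA counts of the second heart field, mesoderm that adds cells to the heart tube, in wild-type mouse embryos of E10.5 (embryonic day). A cell was taken when its barcode belonged to the posterior dissection, it had at least 3 UMIs (unique molecules) of Barx1 and it had 0 UMIs of Wnt2. The rule gave 203 of the 560 E10.5 posterior cells, of 967 cells at E10.5 and 1500 in the series. They are set against the 269 E10.5 posterior cells with 0 UMIs of Barx1, called Barx1-zero cells below. Both groups are wild type and come from 1 library of cells that the labels call Osr1+, without saying how they were chosen or how many embryos were pooled; every cell had an Osr1 UMI. A second library, of the same tissue and genotype at E9.5 with 418 posterior cells, is used for a comparison by stage. There was 1 sample per stage, so no test between groups was made: cells of 1 library are not replicates. The intervals given are 95% and cover counting error only.

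The Barx1-high cells together held 1330066 UMIs and the Barx1-zero cells 1577254. The median depth was 5726 UMIs in Barx1-high cells (4115 to 25222) and 5260 in Barx1-zero cells (4092 to 20432). One barcode of a Barx1-high cell also occurred in the E10.5 middle library. Scrublet, a doublet caller, marked 3 of the 203 Barx1-high cells and 1 of the 269 Barx1-zero cells. Levels are CPM, the UMIs of a gene scaled to 1000000 UMIs of the group. The percentages of cells in which a gene was found come after thinning each cell to 4500 UMIs, which kept 177 Barx1-high and 222 Barx1-zero cells.

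Barx1 itself only describes how the cells were picked. Among Barx1-high cells it ran from 3 to 43 UMIs with a median of 11, or 313 to 5684 CPM with a median of 1682. Cells just inside the limit, at 3 UMIs and Wnt2 of 0, numbered 17 with a median of 562 CPM, and cells just outside it, at 2 UMIs, numbered 19 with a median of 393 CPM. In all, 81 posterior cells had 1 or 2 Barx1 UMIs, and 7 had 3 or more together with Wnt2. As a measure of RNA from other cells, Barx1 was looked for in the foregut epithelium-like cluster, a cell type that should lack it. There 14.0% of the cells had a Barx1 UMI, at a median depth of 6558 UMIs. Of the 43 cells in that cluster, 2 (4.65%) met the rule and are among the Barx1-high cells.

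**Figure D1:**
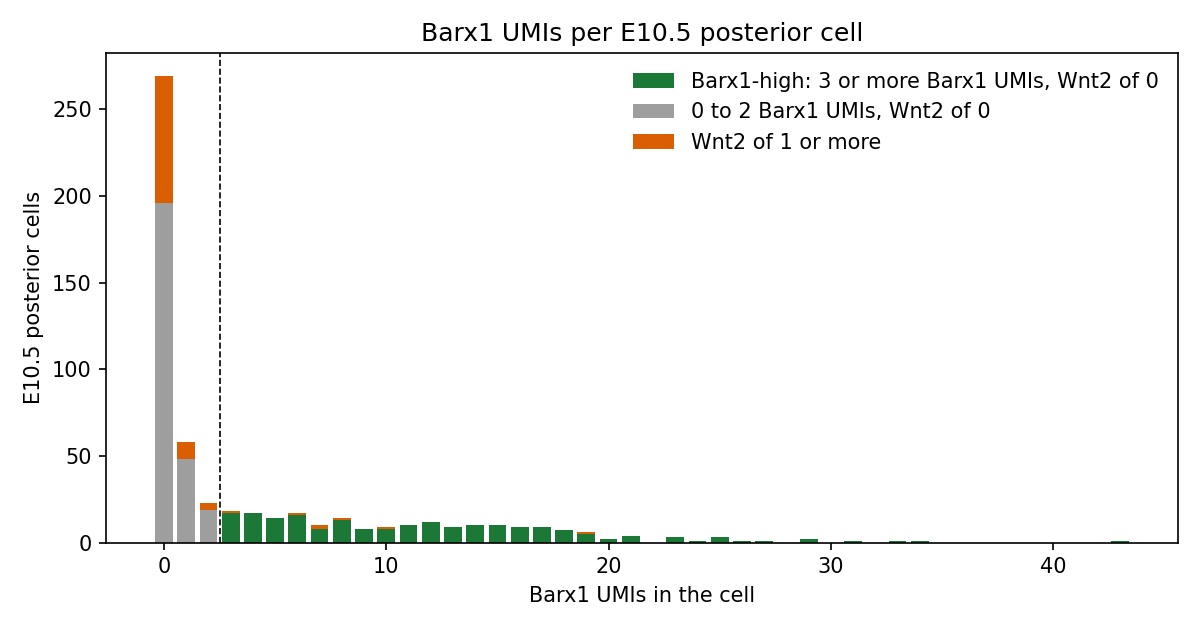
Number of E10.5 posterior cells (vertical axis) at each count of Barx1 UMIs (horizontal axis), green for the 203 Barx1-high cells, grey for cells with 0 to 2 Barx1 UMIs and Wnt2 of 0, orange for cells with a Wnt2 UMI. The dashed line is the limit of 3 UMIs; Wnt2 was found in 73 of the 269 Barx1-zero cells, and in 7 of the cells with 3 or more Barx1 UMIs.

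Barx1 lies on chromosome 13 at 48662998-48666507 (plus strand) and Isl1, the gene that will recur in these cells, on the same chromosome at 116298281-116309689 (minus strand), in the GENCODE annotation of the mouse GRCm38 build. The start regions of both are printed because one chose the cells and the other was higher in them at both stages. They are RefSeq windows of 250 bases before to 50 after each start, GRCm38.p6, 5′ to 3′ on the gene's strand. Capitals mark the homeodomain core TAAT, searched on both strands as TAAT and ATTA.
Barx1, chr13:48662786-48663085, plus strand: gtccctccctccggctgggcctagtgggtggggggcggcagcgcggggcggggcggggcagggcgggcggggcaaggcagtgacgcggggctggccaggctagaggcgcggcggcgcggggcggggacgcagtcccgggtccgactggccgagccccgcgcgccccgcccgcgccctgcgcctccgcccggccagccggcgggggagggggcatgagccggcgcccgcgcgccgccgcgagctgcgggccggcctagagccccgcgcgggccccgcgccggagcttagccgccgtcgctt
Isl1, chr13:116309639-116309938, minus strand: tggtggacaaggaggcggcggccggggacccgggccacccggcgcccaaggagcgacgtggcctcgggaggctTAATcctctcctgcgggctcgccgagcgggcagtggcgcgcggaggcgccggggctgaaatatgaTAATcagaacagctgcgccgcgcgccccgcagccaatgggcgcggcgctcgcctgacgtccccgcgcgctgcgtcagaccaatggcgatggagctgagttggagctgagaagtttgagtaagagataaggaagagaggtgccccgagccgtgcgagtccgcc

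The Isl1 window held TAAT at 2 places and the Barx1 window at 0. Of all 32851 windows in the table, 58.0% held it on either strand. The Barx1 window was 84.7% G and C, the Isl1 window 69.0%, and the median window 52.7%. Only 0.158% of the windows were as rich in G and C as that of Barx1.

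Against Barx1-zero cells, Barx1-high cells had higher Isl1, a transcription factor, together with higher Ccnd2, Ifitm1, Tox3, Pdlim3, Fgf9 and Gdnf, and lower Sparcl1, Igfbp5, Foxd1 and Tbx5. Of 6261 genes with at least 50 UMIs over both groups, 63 were at least 2-fold higher in Barx1-high cells (1.01%) and 92 at least 2-fold lower (1.47%). The median log2 fold over all of them was -0.00. At these shares a short list will mostly hold 0 genes past 2-fold, so a count of 0 in a list below is no finding about that list. Barx1, Wnt2 and Osr1 were left out because they chose the cells. As the cells were chosen on counts of this same library, the E10.5 ratios describe them and test nothing.

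Isl1, a LIM homeobox factor of second heart field and pancreatic mesenchyme that is also required for the pylorus in mouse, had 221 CPM in Barx1-high cells and 46.3 CPM in Barx1-zero cells. That is a ratio of 4.78 (3.68 to 6.26). After thinning it was found in 56.5% of Barx1-high cells (48.9 to 63.9) and 16.7% of Barx1-zero cells (12 to 22.2). A single Barx1-high cell had a median of 1.00 Isl1 UMIs and at most 8, a Barx1-zero cell a median of 0 and at most 3, so cells of both groups overlapped.

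Hoxa7, a Hox gene of more posterior trunk levels, had the highest ratio among counted genes, 15.7 (5.79 to 59.8), at 39.8 CPM in Barx1-high cells and 2.54 CPM in Barx1-zero cells. It was concentrated in few cells: 20 Barx1-high and 3 Barx1-zero cells had a UMI. Pitx1, a homeobox factor of hindlimb and pituitary, had 44.4 CPM in Barx1-high cells and 12.7 CPM in Barx1-zero cells, a ratio of 3.50 (2.08 to 6.13). Six2, which marks the hind stomach and pyloric mesenchyme in mouse, was under the minimum of 50 UMIs. It had 31 UMIs in 26 Barx1-high cells and 2 UMIs in 2 Barx1-zero cells, a ratio of 18.4 with a wide interval (4.68 to 159). Etv1, an ETS factor, had 66.9 CPM in Barx1-high cells and 19 CPM in Barx1-zero cells, a ratio of 3.52 (2.30 to 5.51). Tox3, a nuclear high mobility group box factor, had 117 CPM in Barx1-high cells and 25.4 CPM in Barx1-zero cells, a ratio of 4.62 (3.25 to 6.72).

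Growth factors were among the higher genes. Fgf9, a fibroblast growth factor, had 40.6 CPM in Barx1-high cells and 7.61 CPM in Barx1-zero cells, a ratio of 5.34 (2.82 to 11). Gdnf, the ligand of Ret that draws enteric neural crest into the gut, had 39.1 CPM in Barx1-high cells and 8.24 CPM in Barx1-zero cells, a ratio of 4.74 (2.55 to 9.5). Ntf3, neurotrophin 3, had 36.1 CPM in Barx1-high cells and 12.7 CPM in Barx1-zero cells, a ratio of 2.85 (1.66 to 5.06). Each of the 3 ligands was found in a minority of Barx1-high cells after thinning: Fgf9 in 16.9%, Gdnf in 17.5% and Ntf3 in 16.9%, against 4.05%, 4.95% and 6.31% of Barx1-zero cells. Igf1, insulin-like growth factor 1, had 97.7 CPM in Barx1-high cells and 29.2 CPM in Barx1-zero cells, a ratio of 3.35 (2.38 to 4.80).

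Ccnd2, cyclin D2 of the G1 phase, was the most abundant of the leading genes and nearly general among Barx1-high cells. It had 1038 CPM in Barx1-high cells and 358 CPM in Barx1-zero cells, a ratio of 2.90 (2.62 to 3.20), and was found in 94.9% of thinned Barx1-high cells and 71.2% of thinned Barx1-zero cells. Its close relative Ccnd1 went the other way, at 126 CPM in Barx1-high cells and 174 CPM in Barx1-zero cells, a ratio of 0.724 (0.594 to 0.881), though it stood at 0.986 once clusters named for other cell types, described below, were left out. Of 20 S phase genes and 20 G2 and M phase genes, 0 passed 2-fold in either direction, with median log2 folds of 0.12 and 0.09.

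Several surface and structural genes were higher as well. Ifitm1, an interferon-induced membrane protein also used as an early mesoderm marker, had 462 CPM in Barx1-high cells and 108 CPM in Barx1-zero cells, a ratio of 4.29 (3.61 to 5.11). Pdlim3, an actin-associated PDZ and LIM protein, had 74.4 CPM in Barx1-high cells and 6.34 CPM in Barx1-zero cells, a ratio of 11.7 (6.12 to 25.2). Pdgfra, a platelet-derived growth factor receptor of mesenchyme, had 136 CPM in Barx1-high cells and 52.6 CPM in Barx1-zero cells, a ratio of 2.59 (1.98 to 3.40). Sorbs2, an adaptor of actin-linked junctions, had a ratio of 5.63 (2.99 to 11.5), Dcn, the matrix proteoglycan decorin, 4.50 (2.84 to 7.37), Prnp, the prion protein, 4.2 (2.87 to 6.30), and Tmem158, a membrane protein, 2.46 (1.95 to 3.11).

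The number of leading genes per cell was also counted. Of the 7 genes Isl1, Ifitm1, Ccnd2, Tox3, Pdgfra, Foxf1 and Hoxa5, picked after their values were seen, 5 or more had a UMI in 66.5% of Barx1-high cells and 6.32% of Barx1-zero cells. All 7 were found in 18 Barx1-high cells and in 0 Barx1-zero cells. These counts are unthinned, Barx1-high cells were the deeper group, and genes that are each found more often will also be found together more often. Among thinned Barx1-high cells Isl1 and Foxf1 were found together in 42.4%, against 43.7% as the product of their shares.

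Not all Barx1-zero cells are mesenchyme. Clusters of the E10.5 posterior cells, made without Barx1, Wnt2 and Osr1, put 38 of the 203 Barx1-high cells and 141 of the 269 Barx1-zero cells into clusters named for another cell type by fixed markers. Of the 38, 31 were in a hepatoblast-like cluster, but few of these carried liver RNA. Afp had a UMI in 22.6% of the 31, against 21.2% of the Barx1-high cells in the cluster led by Pdlim3, while Foxf1, a gut mesenchyme factor, had one in 80.6% and Gata6 in 71.0%. The name thus goes against most of the Barx1-high cells that this comparison leaves out. Of the 141 Barx1-zero cells, 64 were in a cardiomyocyte-like cluster. The lung mesenchyme markers Wnt2, Tbx4 and Tbx5 were also higher in that cluster, and Rspo2 and Shox2 were among its leading genes. Leaving out the named clusters thus also removes Barx1-zero cells from a cluster with lung mesenchyme markers. Without these clusters, 165 Barx1-high cells stood against 128 Barx1-zero cells. Of the 165, 99 were in a cluster led by Pdlim3, Isl1 and Ifitm1. Of the 128, 88 were in a cluster led by Wnt4, Sparcl1 and Cxcl13. The clusters were made from these same counts, so ratios of their leading genes without the named clusters are no independent check. Of 4409 genes with at least 50 UMIs in the cells kept, 63 were at least 2-fold higher (1.43%) and 47 at least 2-fold lower (1.07%). A further comparison, chosen after seeing the data, set the Barx1-high cells against the 73 Barx1-zero cells with a Wnt2 UMI. There 94 of 4604 genes were at least 2-fold higher (2.04%) and 41 at least 2-fold lower (0.891%).

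The leading higher genes kept their direction in both narrower comparisons. Pdlim3, Isl1, Ifitm1, Tox3 and Gdnf were also leading genes of the cluster with most of the Barx1-high cells kept. Their ratios without the named clusters are thus no independent check. The Isl1 ratio was 6.58 (4.42 to 10.2) without the named clusters and 5.35 (3.29 to 9.31) against the Wnt2-positive cells. Ccnd2 stood at 2.75 and 3.10 in the same order, Pdlim3 at 11.3 and 10.2, Fgf9 at 5.81 and 8.36, and Tox3 at 5.83 and 6.04. The size of others moved more. Ifitm1 stood at 5.32 (4.11 to 6.99) and 11.9 (7.27 to 20.9), and Gdnf at 2.92 (1.49 to 6.25) and 5.37 (1.74 to 26.9). Sorbs2 stood at 34.2 (5.86 to 1377) without the named clusters, with 1 UMI left in Barx1-zero cells. Etv1 stood at 7.86 (3.43 to 22.2) without the named clusters and 2.75 (1.43 to 5.94) against the Wnt2-positive cells, as did Pitx1, at 6.97 (2.80 to 22.4) and 18.3 (3.15 to 733).

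**Figure D2:**
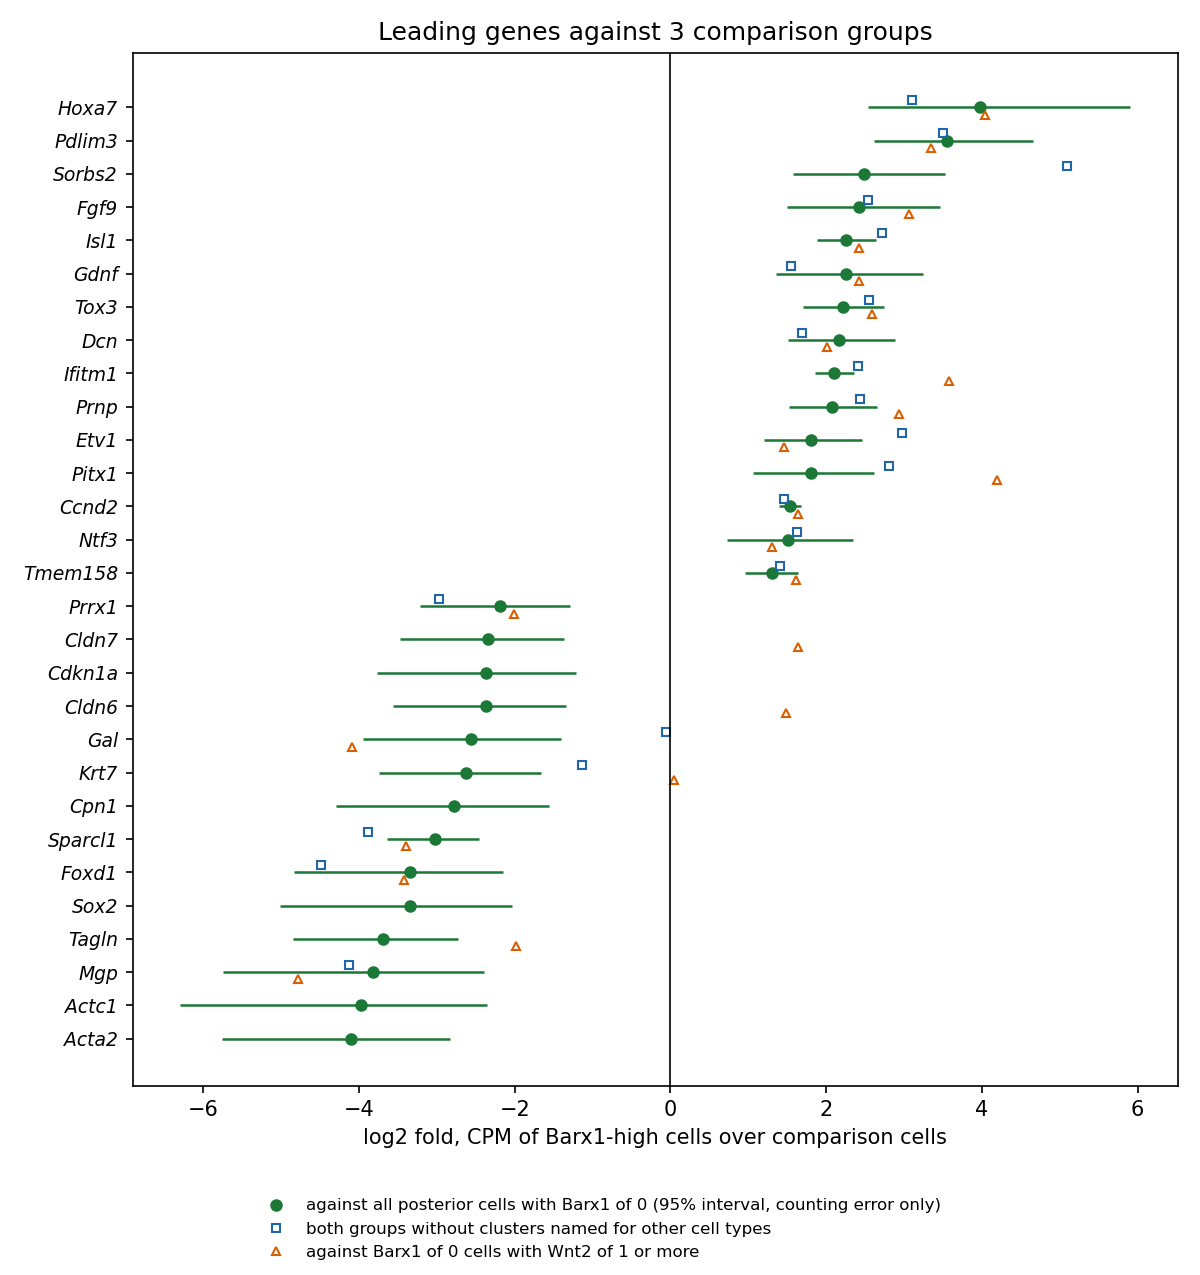
Log2 fold of CPM (horizontal axis, Barx1-high cells over comparison cells) for each gene of the named rule (vertical axis). Green circles with 95% counting intervals are against all Barx1-zero cells, blue squares leave clusters named for other cell types out of both groups, and orange triangles are against Barx1-zero cells with Wnt2; squares and triangles are drawn from 10 UMIs in total with at least 1 on each side. The genes at the top keep their side, while Cldn6 and Cldn7 cross 0 against the Wnt2-positive cells.

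Among the genes lower in Barx1-high cells, Sparcl1, Foxd1, Mgp, Prrx1, Prrx2 and Igfbp5 were as low or lower without the named clusters. Most of the Barx1-zero cells kept there came from the cluster led by Wnt4, Sparcl1 and Cxcl13, so this is no independent check. Sparcl1, a secreted matrix-associated protein, had 21.1 CPM in Barx1-high cells and 171 CPM in Barx1-zero cells, a ratio of 0.123 (0.0805 to 0.182). Without the named clusters the ratio was 0.0674 (0.0409 to 0.106). After thinning, Sparcl1 was found in 7.34% of Barx1-high cells and 41.4% of Barx1-zero cells. Foxd1, a forkhead factor of stromal mesenchyme, had 4.51 CPM in Barx1-high cells and 45.6 CPM in Barx1-zero cells, a ratio of 0.0988 (0.0351 to 0.226), and 0.0446 without the named clusters. Mgp, matrix Gla protein, an inhibitor of calcification, had 4 UMIs in Barx1-high cells and 67 in Barx1-zero cells, a ratio of 0.0708 (0.0187 to 0.190). Prrx1, a homeobox factor of limb and craniofacial mesenchyme, had a ratio of 0.219 (0.108 to 0.409), and its relative Prrx2 had 0.326 (0.219 to 0.474), at 27.1 CPM in Barx1-high cells and 83.1 CPM in Barx1-zero cells. Igfbp5, which binds insulin-like growth factors, had 63.9 CPM in Barx1-high cells and 259 CPM in Barx1-zero cells, a ratio of 0.247 (0.193 to 0.313).

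Lung mesenchyme genes other than Wnt2, which the rule had set to 0, were low in Barx1-high cells. Tbx5, a T-box factor of lung mesenchyme and the venous pole of the heart, had 16.5 CPM in Barx1-high cells and 64.0 CPM in Barx1-zero cells, a ratio of 0.258 (0.155 to 0.413). The Tbx5 ratio was 0.238 without the named clusters and 0.166 against the Wnt2-positive cells. That last group was chosen on Wnt2, which the rule set to 0, so it is no independent comparison for lung mesenchyme genes. Tbx4, a related T-box factor of lung and hindlimb, had 3 UMIs in Barx1-high cells and 17 in Barx1-zero cells, a ratio of 0.209 (0.0393 to 0.724). Nkx6-1, a homeobox factor best known from the pancreas and neural tube, had a ratio of 0.282 (0.161 to 0.469). Shox2, a homeobox factor of the sinus venosus, had 1 UMI in Barx1-high cells and 34 in Barx1-zero cells, nearly all of them in the clusters named for other cell types. The list of lung mesenchyme genes had 2 of its 3 counted members at least 2-fold lower in Barx1-high cells and 0 higher. With the Barx1-zero cells also limited to Wnt2 of 0 these counts were the same. The median log2 fold was then -1.64, against -1.83 with all Barx1-zero cells. The wider list of posterior second heart field and cardiopulmonary genes did not share that direction: of its 9 counted members 7 had a ratio above 1, Isl1 was the only gene at least 2-fold higher and Tbx5 the only gene at least 2-fold lower, and the median log2 fold was 0.31.

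Tbx5 and Isl1 were rarely found in the same Barx1-high cell, though Tbx5 was sparse. Of 177 thinned Barx1-high cells, 100 had Isl1, 12 had Tbx5 and 1 had both, where the product of the shares would give 3.83% of cells and 0.565% had both. In the unthinned counts of these cells, Tbx5 stood at 7.18 CPM in those Isl1-positive after thinning and 30.6 CPM in the others. The interval of that ratio was 0.0672 to 0.670.

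A second group of lower genes belonged to other cell types and was carried by few cells. Epcam, Krt8 and Krt18, genes of epithelium, had ratios of 0.252, 0.379 and 0.401 against all Barx1-zero cells, and 1.51, 2.19 and 1.17 without the named clusters. Their direction reversed. All 5 counted epithelial markers were at least 2-fold lower in Barx1-high cells against all Barx1-zero cells. The same held for the 8 counted liver serum protein genes, whose median log2 fold was -1.91. Without the named clusters that median was 0.02, with 3 of the 8 at least 2-fold lower and 1 at least 2-fold higher. Their foremost member Afp, alpha-fetoprotein, had a ratio of 0.301, against 1.37 when cells with 2 or more hepatoblast marker UMIs were left out. The summed level of the epithelial markers was 219 CPM in Barx1-high cells and 720 CPM in Barx1-zero cells, that of the hepatoblast markers 171 and 597 CPM, and that of the smooth muscle markers 12.8 and 164 CPM.

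The contractile genes had some of the lowest ratios, and much of each difference lay in a single cell. Acta2, smooth muscle actin, had a ratio of 0.0581 with 5 UMIs in Barx1-high and 102 in Barx1-zero cells, of which 51 lay in 1 cell. Tagln, transgelin, had 9 and 138 UMIs, with 64 of the 138 in 1 cell. Actc1, cardiac actin, had 3 and 56 UMIs, with 35 of the 56 in 1 cell. Without its top cell the ratio was 0.116 for Acta2, 0.144 for Tagln and 0.169 for Actc1. Without the named clusters few UMIs were left. Acta2 stood at 0.342 (0.0309 to 2.39) and Tagln at 0.684 (0.127 to 3.67), with intervals that held 1. Actc1 then had 3 UMIs in Barx1-high and 2 in Barx1-zero cells, too few for a ratio. In 203 Barx1-high cells the smooth muscle genes Cnn1 and Myh11 had 0 UMIs.

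The label stomach-type mesenchyme rests on Barx1, the gene of the rule. Other genes of stomach and foregut mesenchyme gave mixed values. Of the 3 counted foregut mesenchyme markers other than Osr1, 0 were at least 2-fold higher. Nkx6-1, listed for both foregut and lung mesenchyme, was the 1 at least 2-fold lower, at a log2 fold of -1.83. Foxf1, a forkhead target of Hedgehog signalling throughout gut mesenchyme, had 300 CPM in Barx1-high cells and 191 CPM in Barx1-zero cells, a ratio of 1.57 (1.35 to 1.83). It was found in 77.4% of thinned Barx1-high cells and 45.9% of thinned Barx1-zero cells. Without the named clusters it stood at 1.09 (0.911 to 1.30). Nkx3-2, a homeobox factor of stomach and splenic mesenchyme, had 0 UMIs in both groups. Nkx2-5, needed for the spleen and pylorus, had 5 UMIs in Barx1-high cells and 1 in Barx1-zero cells; Nkx2-3, of spleen and gut, had 5 and 2; Tlx1, of spleen, had 2 and 0. Leukocyte and nephric markers were at 0 in Barx1-high cells.

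Of Hox groups 4 to 6, all 6 counted members had a ratio above 1 and none passed 2-fold, with a median log2 fold of 0.30. Hoxa5, the Hox gene of lung and foregut mesenchyme, led them, at 212 CPM in Barx1-high cells and 109 CPM in Barx1-zero cells, a ratio of 1.94 (1.60 to 2.36). Without the named clusters the list's median log2 fold was -0.03, and Hoxa5 kept a ratio of 1.68 (1.32 to 2.15). Hoxb6 and Hoxb8, of more posterior levels, were under the minimum: Hoxb6 had 31 UMIs in Barx1-high cells and 15 in Barx1-zero cells, and Hoxb8 had 24 and 8. The summed level of Hox groups 7 to 10 was 68.4 CPM in Barx1-high cells and 11.4 CPM in Barx1-zero cells.

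Secreted Wnt antagonists are the known output of Barx1 in mouse stomach, and here all 3 that were counted had a ratio under 1. Sfrp1, a secreted frizzled-related protein, had 142 CPM in Barx1-high cells and 155 CPM in Barx1-zero cells, a ratio of 0.915 (0.753 to 1.11). Sfrp2 had 36.1 CPM in Barx1-high cells and 122 CPM in Barx1-zero cells, a ratio of 0.296 (0.211 to 0.409). Of the 3, 1 was at least 2-fold lower and 0 at least 2-fold higher. Among ligands, Wnt4 had a ratio of 0.384 (0.281 to 0.519), while Rspo2, an R-spondin that boosts Wnt signalling in lung mesenchyme, had 6 UMIs in Barx1-high cells and 43 in Barx1-zero cells, a ratio of 0.165 (0.0576 to 0.390). Rspo2 depended on the comparison, at 0.855 (0.184 to 4.31) without the named clusters. Those include the cardiomyocyte-like cluster, where Rspo2 was a leading gene. Of 7 counted Wnt targets and receptors, 0 passed 2-fold.

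Hedgehog and retinoic acid genes gave 0 calls, near the shares over all counted genes of 1.01% higher and 1.47% lower. The short FGF and BMP lists, with 2 of 4 and 1 of 8 genes higher, lay above those shares. Ptch1, a receptor and target of Hedgehog, had 202 UMIs in Barx1-high cells and 142 in Barx1-zero cells, a ratio of 1.69 (1.35 to 2.11), and of 6 counted Hedgehog genes 0 passed 2-fold. In the FGF list Fgf9 and Dusp6, a feedback phosphatase with a ratio of 2.02 (1.13 to 3.70), were the 2 of 4 counted members at least 2-fold higher. Dusp6 lay at the limit, at 3.30 (1.35 to 9.74) without the named clusters and 1.75 (0.728 to 5.11) against the Wnt2-positive cells, and 5 of the 14 alternative settings left 1 FGF gene at least 2-fold higher. Etv4, an ETS target of FGF under the minimum of 50 UMIs, had 18 UMIs in Barx1-high cells and 0 in Barx1-zero cells without the named clusters, at least 4.10-fold higher with 3 UMIs as the floor for the group. Of 8 counted BMP genes, the ligand Bmp7 was at least 2-fold higher, at 2.06 (1.21 to 3.61), and 0 were lower. Bmp7 too lay at the limit: 5 of the 14 alternative settings gave 0 BMP genes at least 2-fold higher, although its ratio was 3.97 (1.52 to 13.1) without the named clusters and 6.19 (1.61 to 52.9) against the Wnt2-positive cells, where 1 and 2 BMP genes were at least 2-fold lower. The target Id3 stood at 445 CPM in Barx1-high cells and 729 CPM in Barx1-zero cells, a ratio of 0.610 (0.552 to 0.675). The ligands Bmp4 and Bmp5 were under the minimum: Bmp4 had 11 UMIs in Barx1-high cells and 31 in Barx1-zero cells, Bmp5 4 and 29. Without the named clusters the Bmp5 ratio was 0.137 (0.0254 to 0.483). Of 5 counted retinoic acid genes 0 passed 2-fold; Aldh1a2, the main retinoic acid synthesising enzyme, stood at 1.44 (1.12 to 1.85), and Crabp2, a cellular retinoic acid binding protein, at 0.524 (0.402 to 0.677). Tcf21, a factor of visceral and mesothelial mesenchyme, had a ratio of 2.02 (1.45 to 2.85).

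Of 16 counted collagen and matrix genes 12 had a ratio under 1, with Dcn the only gene at least 2-fold higher and Col4a1, a basement membrane collagen at 0.372 (0.258 to 0.528), the only gene at least 2-fold lower. All 13 mitochondrially encoded genes had a ratio above 1, none past 2-fold, with a median log2 fold of 0.20. They took 2.98% of the UMIs of Barx1-high cells and 2.59% of those of Barx1-zero cells.

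Levels also differed by the number of Barx1 UMIs among posterior cells with Wnt2 of 0. In classes of 0, 1, 2, 3 to 4, 5 to 9 and 10 or more Barx1 UMIs, holding 196, 48, 19, 34, 59 and 110 cells, Ccnd2 stood at 366, 446, 1155, 776, 956 and 1144 CPM. Isl1 ran 48.0, 91.3, 204, 160, 213 and 240 CPM over the same classes. The 19 cells with 2 Barx1 UMIs, outside the rule, were thus within or above the range of the Barx1-high classes for both genes. Hoxa7 climbed within the Barx1-high cells, at 2.57, 3.65, 8.88, 15, 27.7 and 52.0 CPM. Sparcl1 ran 153, 164, 44.4, 40.1, 38.8 and 7.80 CPM, and Tbx5 51.5, 80.4, 62.2, 50.1, 22.2 and 5.20 CPM, lowest in the cells with the most Barx1. Median depth was 5276 UMIs in the class of 0 and 5888 in that of 10 or more, and its part in these trends was not tested.

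**Figure D3:**
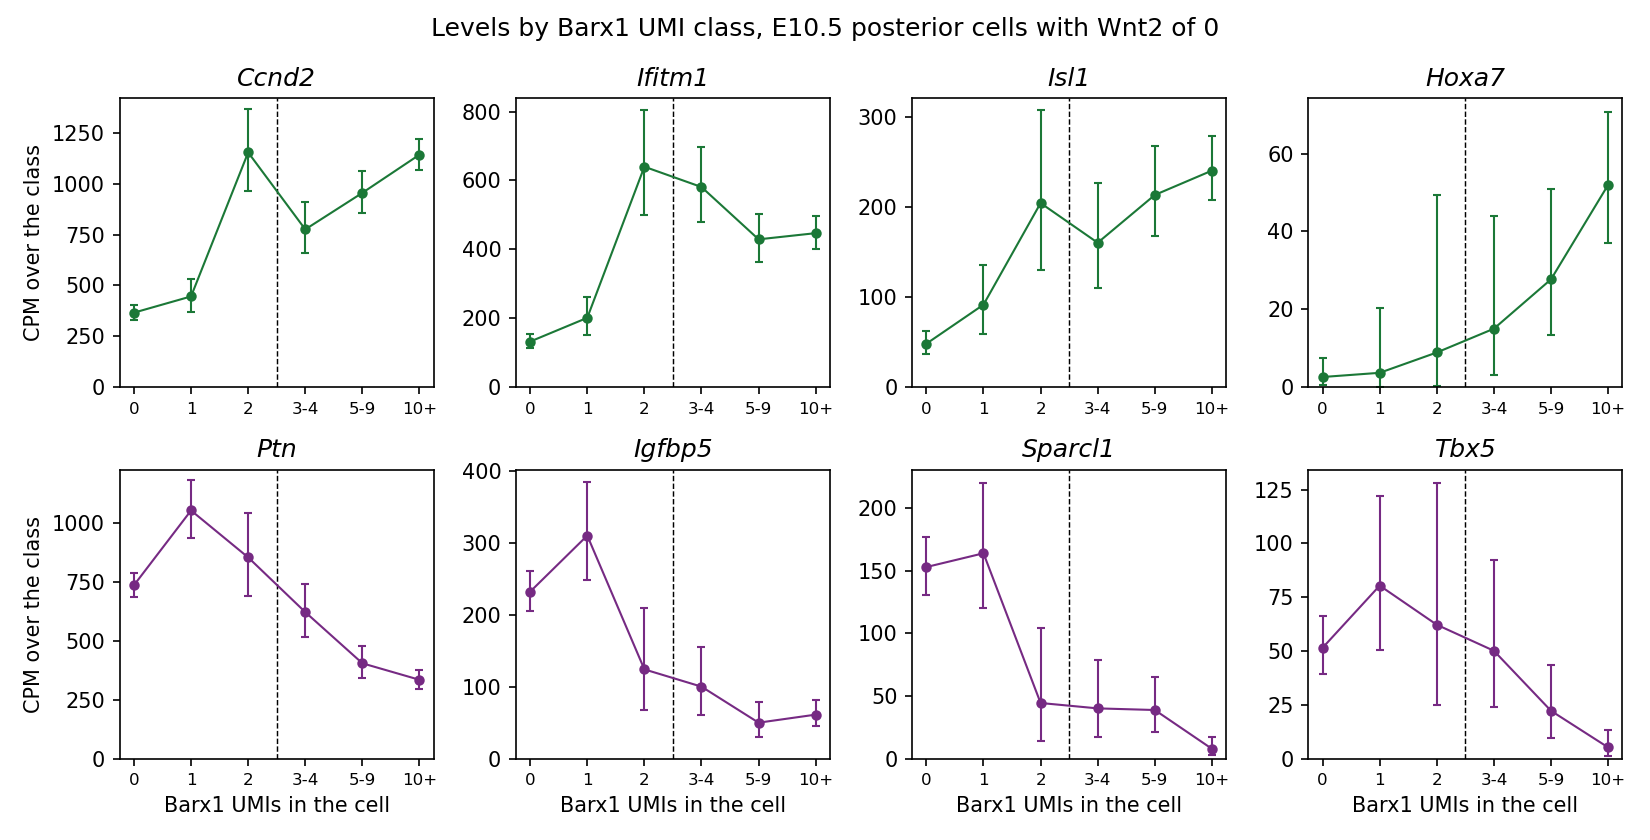
CPM of 8 genes (vertical axis of each panel) over classes of Barx1 UMIs (horizontal axis) in E10.5 posterior cells with Wnt2 of 0, with 95% counting intervals. The dashed line is the limit of the rule. Ccnd2, Ifitm1 and Isl1 reach their upper level by 2 Barx1 UMIs, Hoxa7 climbs to 52.0 CPM in the last class, and Ptn, Sparcl1, Tbx5 and Igfbp5 are lowest in the last 2 classes.

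Across all 471 E10.5 posterior cells that could be thinned, the genes whose counts were most like those of Barx1 by Spearman correlation were Ccnd2 at 0.53, Ifitm1 at 0.48, Isl1 at 0.42, Pdlim3 at 0.36, Tox3 at 0.32, Pdgfra at 0.30, Basp1 at 0.28 and Mest at 0.28. The most opposed were Sparcl1 at -0.38, Ptn at -0.37 and Igfbp5 at -0.31. These describe cells of 1 library, out of 7417 genes, with sparse counts. Within the 177 thinned Barx1-high cells alone, where the spread of Barx1 is smaller, the values were 0.31 for Ccnd2, 0.29 for Pdlim3 and 0.22 for Isl1, and 0.01 for Basp1.

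Clustering, blind to Barx1, placed 68.0% of the Barx1-high cells in 2 clusters where they were the majority. One, led by Pdlim3, Isl1 and Ifitm1, held 99 Barx1-high and 6 Barx1-zero cells. Another, led by Hoxa7, Fgf9 and Pitx1, held 39 Barx1-high cells and 1 Barx1-zero cell. A cluster led by S phase genes such as Ung and Ccne1 held 25 Barx1-high and 33 Barx1-zero cells. The hepatoblast-like cluster held 31 and 34, its name resting on few cells as described above. In that cluster the Barx1-high cells had a median of 8003 UMIs and 7 Barx1 UMIs, against 5259 and 11 in the cluster led by Pdlim3. At a resolution of 0.3, 82.3% of the Barx1-high cells fell in 1 majority cluster, so the split of the larger groups depends on the resolution.

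**Figure D4:**
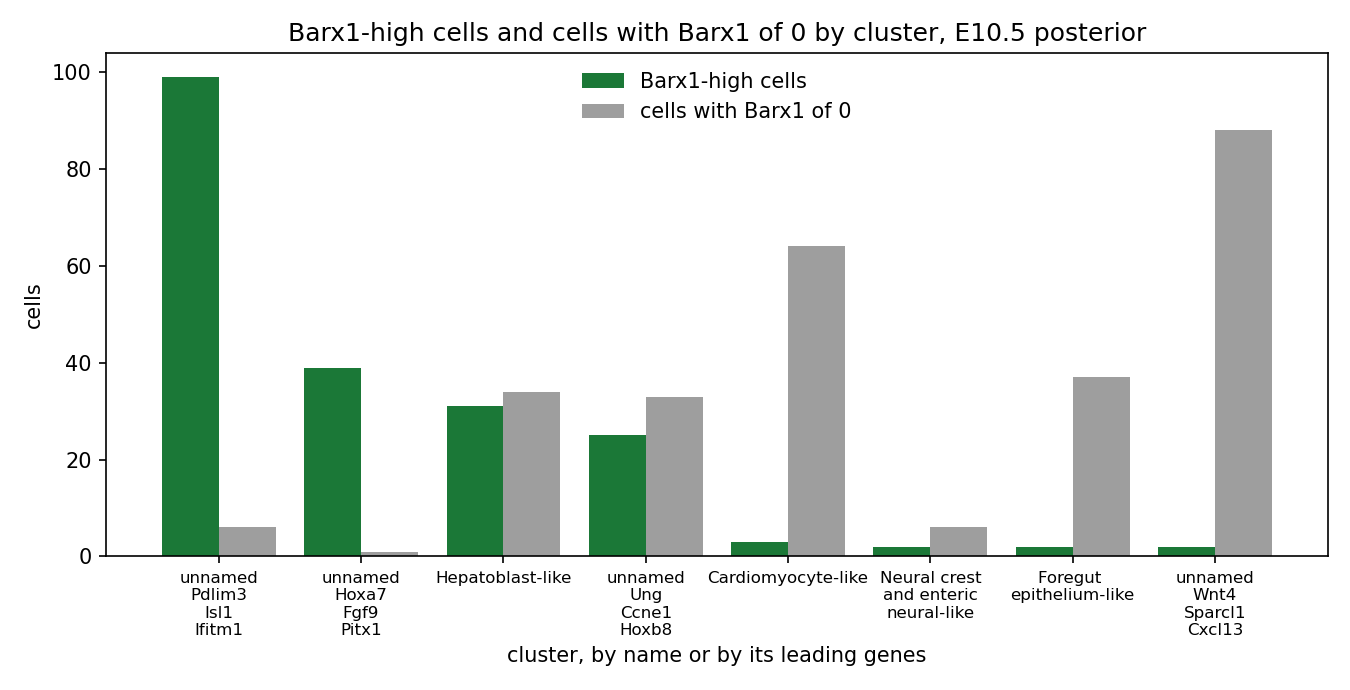
Number of Barx1-high cells (green) and Barx1-zero cells (grey) in each cluster of E10.5 posterior cells (horizontal axis, by name or by leading genes); the vertical axis counts cells. The largest unnamed groups of them hold 99 and 39 Barx1-high cells, and the cluster led by Wnt4, Sparcl1 and Cxcl13 holds 2 Barx1-high and 88 Barx1-zero cells.

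The Barx1-high cells were also split by Isl1 alone. Of the thinned Barx1-high cells, 100 had an Isl1 UMI and 77, called Isl1-zero, had none. Median depths were 6014 and 6108 UMIs and median Barx1 12 and 8 UMIs. Depths and CPM are from unthinned counts, in which 15 of the 77 Isl1-zero cells had an Isl1 UMI, at 40.2 CPM for the group. Pdlim3 stood at 99.1 CPM in Isl1-positive and 34.5 CPM in Isl1-zero cells, with an interval of the ratio of 1.69 to 5.13. Sorbs2 stood at 61.8 and 17.2 CPM (1.72 to 8.36), and Tmem158 at 221 and 91.9 CPM (1.73 to 3.40). Ptch1 stood at 177 CPM in Isl1-positive and 105 CPM in Isl1-zero cells (1.21 to 2.35). In the other direction, Hoxa7 stood at 25.8 CPM in Isl1-positive and 67.0 CPM in Isl1-zero cells (0.206 to 0.700), and Pitx1 at 25.8 and 68.9 CPM (0.200 to 0.678). Ccnd2, at 1015 and 1061 CPM (0.855 to 1.07), Foxf1, at 290 and 314 CPM (0.748 to 1.14), and Hoxa5, at 202 and 224 CPM (0.702 to 1.16), had intervals that hold 1. Afp, at 35.9 CPM in Isl1-positive and 168 CPM in Isl1-zero cells, was also higher in the Isl1-zero cells, and the part of liver RNA in the split was not tested. For co-detection, Isl1 and Pdlim3 shared 33 cells of 177, or 18.6% against 14.4% as the product of their shares. Hoxa7 and Pdlim3 shared 1 cell (0.565% against 2.15%). Hoxa7 and Fgf9 shared 8 of the 15 cells with Hoxa7 (4.52% against 1.44%). Isl1 and Hoxa7, at 3.39% against 4.79%, and Isl1 and Pitx1, at 6.21% against 7.66%, lay a little under that product.

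By variance over mean in thinned counts, the genes that varied most among Barx1-high cells were Hbb-y at 31.8, Afp at 18.4, Hba-x at 16.2 and Malat1 at 10.2, against a median of 1.01 over 5246 genes and 3.37 for Barx1. Haemoglobin and liver RNA in single cells head this order. Cdkn1c, a Cdk inhibitor of imprinted growth control, followed at 6.46 with up to 40 UMIs in a thinned cell. Its level was 1112 CPM in Barx1-high cells and 1020 CPM in Barx1-zero cells.

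The E9.5 library, which the rule did not use, held fewer such cells. It was deeper, so membership was set on counts thinned to 4500 UMIs, which gave 19 Barx1-high and 339 Barx1-zero posterior cells. On full counts the rule gave 49 and 284 cells, and 13 of 94 named genes then left the interval of their ratio. Of 6216 genes counted at both stages, 50 were at least 2-fold higher in Barx1-high cells (0.804%) and 255 at least 2-fold lower (4.10%). Of the 56 genes higher at E10.5 and counted at both stages, 37 had a ratio above 1 at E9.5, 15 of them past 2-fold, and 4 were at least 2-fold lower. Of the 82 lower ones, 46 were at least 2-fold lower at E9.5 and 70 had a ratio under 1. With 1 sample per stage, stage cannot be told apart from litter, depth and dissection.

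Isl1 was again prominent in E9.5 Barx1-high cells, at 239 CPM against 60.9 CPM in Barx1-zero cells, a ratio of 3.92 (3.28 to 4.66). Ccnd2 stood at 927 CPM in E9.5 Barx1-high cells and 345 CPM in E9.5 Barx1-zero cells, a ratio of 2.69 (2.47 to 2.93). Prnp had a ratio of 4.05, Etv1 3.44, Gdnf 3.26, Tox3 3.18, Ifitm1 3.13 and Ntf3 6.01. Foxf1, at 2.12 (1.86 to 2.41), and Hoxa5, at 2.42 (1.88 to 3.07), were past 2-fold at E9.5 and not at E10.5. On full counts the log2 fold of Isl1 was 2.06 and that of Ccnd2 1.86. Tbx5 had 2 UMIs in E9.5 Barx1-high cells and 661 in E9.5 Barx1-zero cells, a ratio of 0.0500 (0.00604 to 0.181). Sparcl1 had 0 UMIs in E9.5 Barx1-high cells and 466 in E9.5 Barx1-zero cells, at least 9.40-fold lower with 3 UMIs as the floor for the group.

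Other genes had unlike ratios at the stages, or too few UMIs at E9.5 to compare. Pdlim3 had a ratio of 1.15 (0.449 to 2.45) at E9.5, a log2 fold of 0.20, but 1.01 on that scale with membership on full counts. Hoxa7 had 0 UMIs in E9.5 Barx1-high and 3 in E9.5 Barx1-zero cells, too few for a ratio. Igf1 had 1 UMI in E9.5 Barx1-high cells and 44 in E9.5 Barx1-zero cells. Those groups held 678656 and 11218743 UMIs in total, so such small counts give no firm ratio. Aldh1a2 stood at 22.1 CPM in E9.5 Barx1-high cells and 163 CPM in E9.5 Barx1-zero cells, a ratio of 0.135 (0.0757 to 0.224); its E10.5 ratio was 1.44. On full counts its E9.5 log2 fold was -2.10, against -2.88 with thinned membership. Gata4, a zinc finger factor of heart and visceral mesoderm, had an E9.5 ratio of 2.41 (1.96 to 2.95), and at E10.5 it had 1.03 (0.652 to 1.61). Whether these differences between stages exceed the spread between embryos cannot be tested with 1 sample each.

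**Figure D5:**
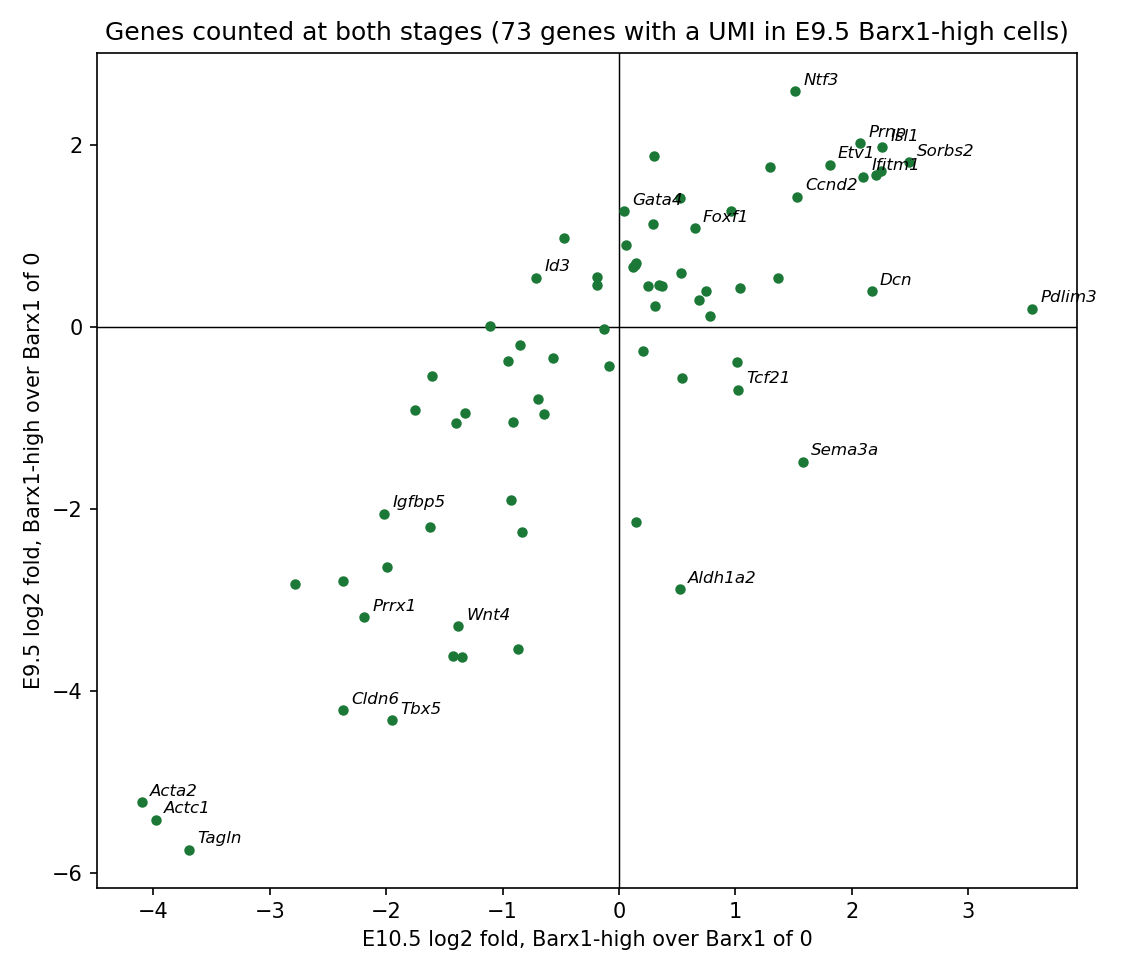
Log2 fold of CPM of Barx1-high over Barx1-zero posterior cells at E10.5 (horizontal axis) and at E9.5 (vertical axis) for the 73 genes named in the text or drawn from its lists that were counted at both stages and had a UMI in E9.5 Barx1-high cells. Isl1, Ifitm1, Prnp and Ccnd2 lie in the upper right, Acta2, Actc1, Tagln and Tbx5 in the lower left, and Sema3a and Aldh1a2 in the lower right.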

How the data were processed

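Each stage has a deposited matrix of raw UMI counts made by the authors, with 17348 genes at E10.5 and 17492 at E9.5. Per the labels, tissue was dissociated with trypsin, loaded on a 10x Chromium and aligned to mm10. The number that ends a barcode stands for the dissected position. Per the submitters' processing notes, Cell Ranger 3.0 and Seurat were used; the annotation is not given in the sources used here.

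Counts were summed over the cells of a group and divided by the group's total (CPM). Ratios have exact conditional Poisson (Clopper-Pearson) 95% intervals, shares exact binomial ones. A group at 0 UMIs gives a bound at 3 UMIs, and no ratio is given where both groups are at 3 or fewer. Genes with at least 50 UMIs over both groups were counted, and a gene was called at a 2-fold ratio; the ratio step was tested on simulated counts. Scrublet and clusters were run in scanpy 1.11.5. Scrublet was given all genes. Clusters were made from 2000 variable genes, leaving out haemoglobin, mitochondrially encoded and rule genes (Leiden of igraph 0.11.9, resolution 0.6, neighbours 15, components 20). Names of clusters needed 3 or more markers. No cell was removed.

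Named genes were the 12 highest and 12 lowest ratios with 1 direction under equal cell weights and thinning, the 10 highest and 10 lowest over both stages, the 8 most like Barx1 and members of the gene lists. Epithelial and hepatoblast genes are from the marker lists. Ptn, Ung, Ccne1 and Cxcl13 were chosen after their values were seen. The members, lists and alternatives were chosen with earlier results of these data known.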

Additional observations from a re-analysis of the deposited data

Results flagged for a closer look

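Sema3a, a secreted guidance factor, differed between the stages: its log2 fold in Barx1-high over Barx1-zero posterior cells was -1.48 at E9.5 (3 and 138 UMIs, ratio 0.359, 0.0732 to 1.07) and 1.58 at E10.5 (43 and 17 UMIs, ratio 3.00, 1.68 to 5.61). The difference was not tested, since each stage is 1 sample.

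Cells that meet the Barx1 and Wnt2 conditions also appeared in dissections that the comparisons do not use. Their shares lay above the limit for a count of 0 (9.68% of outflow tract cells and 0.906% of middle cells). Both intervals reach below that limit, and the part of stray RNA in these cells was not tested. The E10.5 outflow tract library held 6 of them among 31 cells (19.4%, exact binomial 7.45 to 37.5) and the E10.5 middle library 4 among 331 (1.21%, 0.330 to 3.07), against 203 of 560 in the posterior library (36.2%, 32.3 to 40.4). In genes picked after their values were seen, the 6 outflow tract cells had 0 UMIs of Isl1, Foxf1 and Hoxa5, while Dlx2, a homeobox gene of pharyngeal arch mesenchyme, had a UMI in 5 of the 6 and Dlx5 in 4. In the posterior Barx1-high cells Dlx2 was found in 0.493% and Dlx5 in 0%. The 4 middle cells had 0 Isl1 UMIs, Foxf1 in 3, and Crabp1 in all 4 with 4 to 11 UMIs each. They shared genes with the outflow tract cells: Dlx2 and Dlx5 each had a UMI in 2 of the 4. Prrx1 had one in 3 cells of each library, and Crabp1 in 3 of the 6 outflow tract cells.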

How the results depend on the processing

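No paired analysis was possible because each stage is 1 sample and no result comes from a test. The count of higher genes was 63 and of lower genes 92. Without clusters named for other cell types 47 were lower, and against Wnt2-positive Barx1-zero cells, an alternative chosen after seeing the data, 41 were lower. Thinned counts gave 40 higher, where fewer genes reach 50 UMIs. A minimum of 20 UMIs gave 217 higher and 281 lower, of 200 UMIs 7 and 17, and of 1 UMI 1657 and 1571. The other settings tried (Barx1 at 2 or 5 UMIs, membership on thinned counts, Wnt2 not used, a comparison group with Wnt2 of 0, no doublets, equal cell weights, other scaling, and, also chosen after seeing the data, no cells with hepatoblast UMIs and no top cell) kept both counts within 1.5 times. The share of Barx1-high cells in majority clusters was 68.0%, and 82.3% at resolution 0.3. Log2 folds that changed sign without the named clusters were those of Actc1 (0.04), Sox2 (0.04), Cpn1 (1.04), Cdkn1a (1.04), Epcam (0.60), Krt8 (1.13), Krt18 (0.22) and Apoa2 (0.19). Those of Actc1, Sox2, Cpn1 and Cdkn1a rest on 3 UMIs in Barx1-high cells and 1 or 2 in Barx1-zero cells. That is too few for a ratio, so no reversal is read from these genes. Against the Wnt2-positive cells the log2 folds that changed sign were those of Krt7 (0.05), Cdkn1a (1.12), Cldn6 (1.48), Cldn7 (1.63), Epcam (0.18), Krt8 (1.59), Krt18 (0.42), Afp (0.50), Ttr (1.2) and Apoa2 (0.97). Afp also reversed (0.46) without cells with 2 or more hepatoblast UMIs. At a median of 5726 UMIs per Barx1-high cell, a gene at a few CPM is seen in few cells, and ratios under 50 UMIs in total have wide intervals.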
